A study of Homo sapiens with 6 samples.

Results

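The RB pathway genes examined here are 10 genes that set whether a cell passes from G1 into S phase: the retinoblastoma gene RB1, the D-type cyclin genes CCND1, CCND2 and CCND3, the kinase genes CDK4 and CDK6, the INK4 inhibitor genes CDKN2A and CDKN2B, and the CIP/KIP inhibitor genes CDKN1A and CDKN1B. They were taken by symbol from the 58735 genes of the deposited table of gene counts, in which each symbol matched a row, and 9 of the 10 passed edgeR's filter on low counts, as did 17514 genes in all. RNA-Seq counts were available for 3 libraries labelled WT and 3 labelled GFI1-KO. Both groups are H1155 cells, a line of large cell neuroendocrine lung cancer, grown untreated in DMEM with 10% FBS. The WT cells are the unedited line. In the GFI1-KO cells the promoter region of GFI1, a gene for a transcriptional repressor, had been cut with Cas9 and paired guides, and GFP-positive cells were sorted by FACS into monoclonal clones. The number of clones behind the 3 GFI1-KO libraries is not given in the sources used here, and nothing states that the libraries of a group came from separate cultures. All p-values below therefore measure only the spread between these libraries, and what is particular to a clone cannot be told apart from what follows the edit. The comparison asks how the RNA of each gene differed between the groups.

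The retinoblastoma protein, the product of RB1, binds E2F transcription factors and holds the genes for DNA replication silent. Complexes of a D-type cyclin with CDK4 or CDK6 phosphorylate it and, with cyclin E and CDK2, release E2F. INK4 proteins bind CDK4 and CDK6 directly, whereas CIP/KIP proteins act mainly on CDK2 complexes and also take part in assembling cyclin D with its kinases. Loss of RB1 function is frequent among neuroendocrine lung cancers, and RB-deficient tumours often hold a high level of p16INK4a, the best known product of CDKN2A.

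The count table held 14882914 to 17692882 counts per library, and 3 counts, taken as the smallest a library can show, corresponded to 0.170 to 0.202 CPM. GFI1 itself (ENSG00000162676, chr1:92474762-92486876 in hg38, minus strand) had counts of 153, 106 and 125 in WT and of 174, 188 and 170 in the libraries labelled GFI1-KO. The edited gene was thus not lower in the edited group, with a log2 fold change of 0.31 ± 0.12 (SE, n = 3 per group, edgeR adjusted p = 0.0273), which moved to -0.01 once the GC content and length of genes were corrected for (adjusted p = 0.966). It missed the threshold without WT library 2 (0.21, edgeR adjusted p = 0.147), without WT library 3 (0.28, adjusted p = 0.0633) and without GFI1-KO library 2 (0.27, adjusted p = 0.0927). Counts on a gene do not measure its protein, which the study assessed by immunoblot and which was not analysed here. Directions below are given as the libraries are labelled. Across all tested genes the change followed the GC content of the transcripts. The 4354 genes with the least GC had a median log2 fold change of -0.48, as many genes with the most had one of 0.61, and Spearman's rho across 17415 genes, which are not independent replicates, was 0.587. The correction fits and removes such a trend in each library, so the rho of -0.00186 after it was set by its design. It would also remove a real difference that follows GC content. Whether the trend is technical was not tested, so changes below are given without and with the correction. Neuroendocrine markers summed to 785 to 800 FPKM in WT and 1064 to 1084 FPKM in the libraries labelled GFI1-KO and, of the 10 tested, 7 were higher and 3 lower (corrected, 4 higher and 5 lower). The higher sum was carried by SCG2, with means of 181 and 402 FPKM, and SYP, with 49.1 and 112. Epithelial markers summed to 43.6 to 46.4 and 46.5 to 51.7 FPKM, sums carried by KRT8 and KRT18, with KRT19 at no more than 3 counts. EPCAM, at 51 to 78 counts in WT and 10 to 22 in the other group, and CDH1, at 18 to 35 and 1 to 10 counts, went the other way, and of 5 epithelial markers tested 1 was higher and 2 lower (corrected, 0 and 4). Markers of fibroblasts summed to 17.6 to 18.1 and 12.5 to 13 FPKM (DCN at 0, THY1 at no more than 3 counts), with COL3A1 alone of 4 tested higher, at 2 to 3 counts in WT and 129 to 170 in the other group. Those of endothelium summed to 3.53 to 3.97 and 1.76 to 1.99 FPKM (VWF and KDR at no more than 2 counts). No leukocyte marker had more than 7 counts in any library. The part of these differences in the results below was not tested, and in bulk RNA fewer cells with a transcript and less RNA per cell cannot be told apart.

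The 250 bases before the start sites of the 3 inhibitor genes and the 2 kinase genes called below are shown here, so that their base composition can be read beside the GC content of the transcripts. The sequences are RefSeq's for GRCh38.p14, written 5′ to 3′ on the gene's strand. Of the 10 genes, 8 had entries in the table used, and CCND1 and CCND2 had none. Capitals mark the GC box GGGCGG, on either strand (so also as CCGCCC), and the E-box CACGTG. In CDKN1A the last 2 GC boxes overlap by 1 base.
CDKN1A, chr6:36678464-36678713, plus strand: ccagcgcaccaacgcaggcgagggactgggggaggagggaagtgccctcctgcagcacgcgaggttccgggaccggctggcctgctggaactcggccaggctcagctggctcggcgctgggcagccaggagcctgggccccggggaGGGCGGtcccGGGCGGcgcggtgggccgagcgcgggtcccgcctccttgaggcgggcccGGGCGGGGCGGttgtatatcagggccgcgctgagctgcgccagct
CDKN2B, chr9:22009306-22009555, minus strand: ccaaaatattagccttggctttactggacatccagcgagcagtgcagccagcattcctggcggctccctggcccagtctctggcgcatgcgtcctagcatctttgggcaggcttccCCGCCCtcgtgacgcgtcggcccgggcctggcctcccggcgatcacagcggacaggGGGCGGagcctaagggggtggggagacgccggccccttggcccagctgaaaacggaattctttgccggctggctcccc
CDKN2A upstream start, chr9:21995325-21995574, minus strand: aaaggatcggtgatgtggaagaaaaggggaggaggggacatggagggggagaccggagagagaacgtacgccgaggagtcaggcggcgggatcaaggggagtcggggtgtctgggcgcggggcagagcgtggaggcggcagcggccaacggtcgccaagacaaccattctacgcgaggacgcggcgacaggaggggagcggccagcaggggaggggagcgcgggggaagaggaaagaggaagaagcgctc
CDKN2A downstream start, chr9:21974858-21975107, minus strand: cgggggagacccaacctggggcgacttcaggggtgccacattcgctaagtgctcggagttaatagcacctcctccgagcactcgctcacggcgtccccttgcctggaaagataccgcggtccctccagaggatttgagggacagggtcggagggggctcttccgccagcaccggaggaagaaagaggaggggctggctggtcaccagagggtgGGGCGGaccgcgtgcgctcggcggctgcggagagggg
CDK4, chr12:57752311-57752560, minus strand: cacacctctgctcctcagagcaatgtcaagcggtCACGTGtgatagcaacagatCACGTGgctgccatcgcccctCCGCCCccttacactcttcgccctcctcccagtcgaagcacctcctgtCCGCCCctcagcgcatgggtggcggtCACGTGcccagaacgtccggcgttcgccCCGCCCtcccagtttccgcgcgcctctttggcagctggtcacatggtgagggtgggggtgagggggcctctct
CDK6, chr7:92836574-92836823, minus strand: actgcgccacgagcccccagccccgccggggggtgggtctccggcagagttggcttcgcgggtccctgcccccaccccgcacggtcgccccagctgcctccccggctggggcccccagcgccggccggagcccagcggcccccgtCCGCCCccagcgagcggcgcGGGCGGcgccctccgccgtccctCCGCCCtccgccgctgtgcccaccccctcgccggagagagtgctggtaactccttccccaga

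These windows held 80% GC for CDK6, 76.4% for CDKN1A, 66.8% for each start of CDKN2A, 66.4% for CDKN2B and 65.6% for CDK4, against a median of 58% over 35116 promoters. CDKN1A had 4 GC boxes, CDK4 and CDK6 had 3 each, and CDKN2B had 2. A second start listed for CDK6, chr7:92833960-92834209, had 67.6% GC and no GC box and is not shown. The starts listed for CCND3, also not shown, had 74.4%, 71.2% and 61.2% GC with 5, 2 and 0 GC boxes. CDKN2A had 1 at its downstream start, the start of the p16INK4a transcript, and none at its upstream start, that of the ARF transcript. A GC box was present in 42.6% of all promoters. CDK4 carried 3 E-boxes, a motif bound by MYC and related factors that 6.34% of all promoters hold, and none of the other windows had one. The E2F elements TTTCCCGC and TTTGGCGC, searched on both strands, were in none of the 12 entries of the members and in 1.93% of all promoters. The entry for RB1 is an internal start, 172724 bases from the gene's deposited 5′ end, so the promoter at that end was not searched. The letters AATC, the core of the sites that GFI1 binds, were also searched on both strands. They are too short to mark a site, since 64.8% of promoters hold them, and of the 6 windows shown the downstream start of CDKN2A had 1 match and the others had none. A promoter rich in GC was shared by genes that were higher and by one that was lower, CDK6, whose transcripts hold only 40.6% GC. Such matches describe the letters of the window and not a bound site.

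Levels between genes were compared as FPKM, which divides a count by the deposited gene length and the library total. CDKN2A and CDK4 stood far above the other members in every library. In WT, CDKN2A had a level of 40.6 ± 2.26 FPKM (SD, n = 3) and CDK4 32.9 ± 1.16. They were followed by CCND3 at 9.1 ± 0.606 and CDKN1B at 8.64 ± 0.592, whose libraries overlapped, and then by CDKN2B at 4.28 ± 0.404 and CDKN1A at 4.16 ± 0.481, which also overlapped. Below these came RB1 at 3.24 ± 0.153, CDK6 at 0.967 ± 0.107, CCND1 at 0.296 ± 0.0354 and CCND2 at 0.0633 ± 0.0249 FPKM. In the libraries labelled GFI1-KO, CDKN1A stood at 17.4 ± 0.353 FPKM, overlapping CCND3 at 17.8 ± 0.615. It had passed CDKN2B at 10.8 ± 0.435 and CDKN1B at 9.54 ± 0.958, which overlapped each other. These levels and their order were not corrected for GC content. The log2 fold changes of CDKN1A, CDKN2B and CDKN1B were 2.08, 1.35 and 0.16, and 1.56, 1.30 and 0.54 with the correction. CDKN2A led again with 63.8 ± 0.546 FPKM before CDK4 with 49 ± 1, and CDK6 at 0.521 ± 0.0605 overlapped CCND1 at 0.4 ± 0.14.

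**Figure D1:**
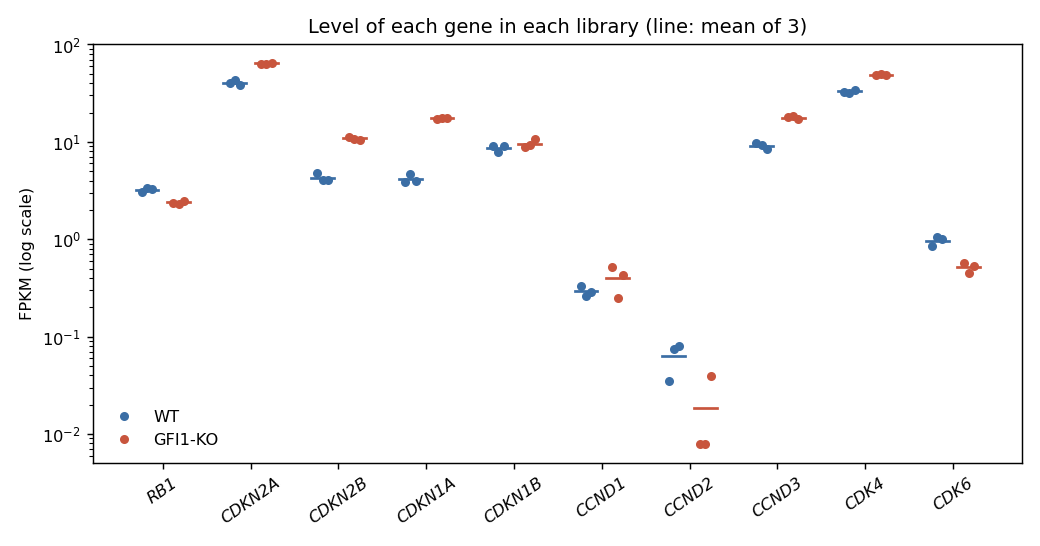
Level of each of the 10 genes in FPKM (log axis) in the 3 libraries labelled WT (blue) and the 3 labelled GFI1-KO (red), with a line at each group's mean. CDKN1A rises from about the level of CDKN2B in WT, 4.16 FPKM, to that of CCND3, 17.4 FPKM, while CDKN1B, CCND1 and CCND2 have groups that overlap. The levels are not corrected for GC content.

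Of the 9 members tested, CDKN1A, CDKN2B, CCND3, CDKN2A and CDK4 (5 genes) were higher in libraries labelled GFI1-KO, CDK6 and RB1 (2 genes) were lower, and CDKN1B and CCND1 (2 genes) did not pass. A call is an edgeR adjusted p no greater than 0.05, and the background is high, since 72.4% of all tested genes were called, 36.5% higher and 35.9% lower. The normalized counts of 7 members did not overlap between the groups, as was true of 74.4% of all tested genes. The share of members called is near that background, and it is not a result about these genes. The median log2 fold change of the 9 was 0.59, against 0.00 for all tested genes. With the GC and length correction, which called 60.4% of genes (33.2% higher and 27.2% lower), 6 members were higher, 1 was lower and the median was 0.21, against 0.03 for all genes. RB1 lost its call and CDKN1B gained one.

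**Figure D2:**
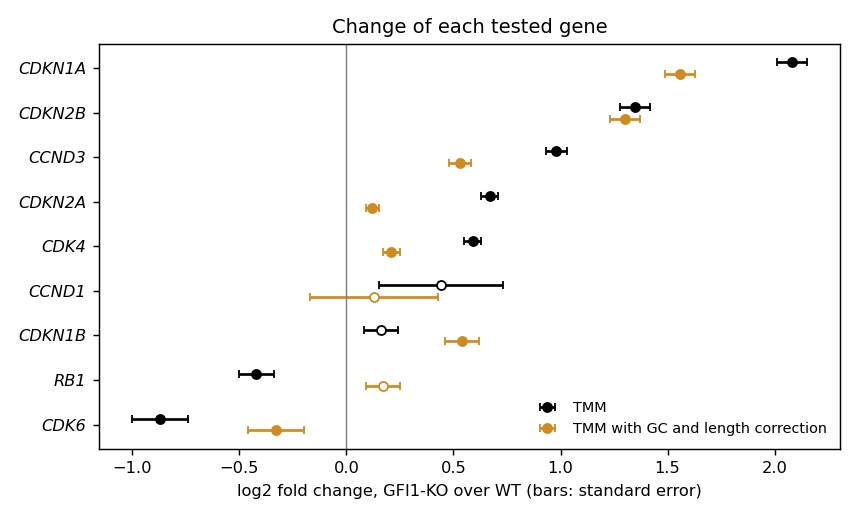
Log2 fold change of each tested gene, labelled GFI1-KO over WT, with its standard error as the bar, by edgeR with TMM factors (black) and with the added correction for GC content and gene length (orange). Filled points passed an adjusted p of 0.05. CDKN1A and CDKN2B stay above 1 on the log2 scale in both, and RB1 moves from -0.42 to 0.17.

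**Figure D3:**
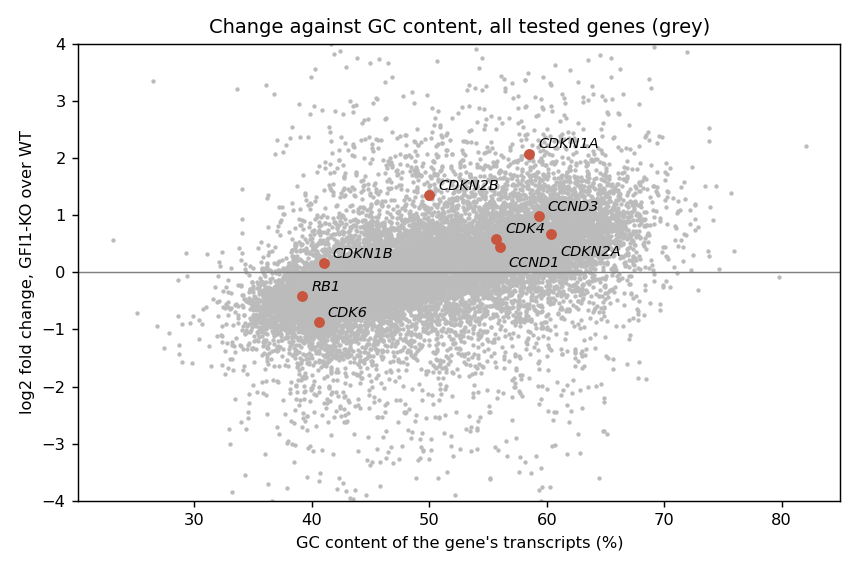
Log2 fold change, labelled GFI1-KO over WT, against the GC content of each gene's transcripts in percent, for all tested genes (grey) and the 9 tested members (red), with 152 genes beyond the axis of 4 on either side. The cloud climbs with GC content, and CDKN1A and CDKN2B lie in its upper part and CDK6 in its lower part.

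The INK4 inhibitor genes were both higher. CDKN2B (ENSG00000147883, chr9:22002903-22009363 in hg38, minus strand) encodes p15INK4b, an inhibitor of CDK4 and CDK6. It had normalized counts of 317, 272 and 269 in WT and of 767, 721 and 711 in the libraries labelled GFI1-KO. Each library of the second group lay above each of the first, 2.56-fold by the means, with a log2 fold change of 1.35 ± 0.07 (SE, edgeR adjusted p = 5.86e-15). The correction for GC and length left it at 1.30 (adjusted p = 1.14e-13). Its transcripts hold 50% GC, in the middle of the range. CDKN2A (ENSG00000147889, chr9:21967753-21995301, minus strand) encodes p16INK4a and, from its upstream first exon, ARF, which restrains MDM2. It had normalized counts of 2853, 3074 and 2760 in WT and of 4581, 4588 and 4646 in the other group. The groups were apart here too, 1.59-fold by the means, with a log2 fold change of 0.67 ± 0.04 (edgeR adjusted p = 1.04e-14). The corrected change was 0.12 (adjusted p = 0.00324), so most of its size was lost, and its transcripts hold 60.4% GC. Counts per gene do not separate the p16INK4a and ARF transcripts, whose starts lie 20467 bases apart. The RNA of MDM2, whose protein ARF inhibits, was lower, with a log2 fold change of -0.66 (edgeR adjusted p = 9.61e-12). It did not pass with the correction (-0.10, adjusted p = 0.0814), and a link to CDKN2A was not tested.

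The gene ends of CDKN2A and CDKN2B are 7602 bases from each other, and the antisense gene CDKN2B-AS1 overlaps both on the opposite strand. CDKN2B-AS1, also known as ANRIL, had normalized counts of 170 ± 21.2 in WT and 115 ± 6.7 in the libraries labelled GFI1-KO (SD, n = 3). It was lower, by a log2 fold change of -0.56 (edgeR adjusted p = 0.000321), and -0.10 with the correction. The strand setting of the counting is not given in the sources used here, so reads of the antisense gene and of the inhibitor genes may not have been told apart, and 12.9% of the 50-base words of CDKN2A transcripts also occur in other genes, which leaves its count uncertain. Within 5 megabases on either side of CDKN2A, 18 of 31 tested genes were lower and 3 higher, against 35.9% and 36.5% of all tested genes. The median of their changes was -0.40 on the log2 scale (corrected, -0.04). The other members of the family lie elsewhere: CDKN2C, which encodes p18INK4c, had a log2 fold change of 0.86 (edgeR adjusted p = 5.7e-17) and CDKN2D, which encodes p19INK4d, one of 0.93 (adjusted p = 2.9e-12), with 0.53 and 0.24 after the correction. All 4 INK4 genes passed in the same direction, with a median of 0.89, and all 4 passed after the correction with a median of 0.38. Of all tested genes 36.5% were called higher, and 33.2% after the correction.

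Among the CIP/KIP inhibitors, CDKN1A was higher, CDKN1C was lower and CDKN1B did not pass. CDKN1A (ENSG00000124762, chr6:36676460-36687339, plus strand) encodes p21, an inhibitor of CDK2 complexes. Its normalized counts were 192, 237 and 198 in WT and 866, 900 and 889 in the libraries labelled GFI1-KO. With the groups far apart, its mean was 4.23-fold higher and its log2 fold change of 2.08 ± 0.07 was the largest of the members (edgeR adjusted p = 1.19e-18). It was 1.56 with the correction (adjusted p = 3.88e-15), and between 2.02 and 2.17 when any library was left out. The tested genes within 5 megabases had a median of 0.41 (corrected, 0.11).

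CDKN1B (ENSG00000111276, chr12:12715058-12722371, plus strand) encodes p27, which binds cyclin E and CDK2. It had normalized counts of 416, 369 and 417 in WT and of 412, 432 and 497 in the libraries labelled GFI1-KO. The groups overlapped, since GFI1-KO library 1 lay below WT libraries 1 and 3. The log2 fold change was 0.16 ± 0.08 (edgeR adjusted p = 0.0789), but 0.22 without GFI1-KO library 1 (adjusted p = 0.0315) and 0.54 with the correction (adjusted p = 2.27e-06), its transcripts holding 41% GC. AC008115.3, which lies within CDKN1B on the same strand, had 14 to 27 counts in WT and 13 to 19 in the other group and did not pass (-0.51, edgeR adjusted p = 0.184). CDKN1C, which encodes p57, went the other way from 180 ± 5.05 to 63.1 ± 8.78 normalized counts, a log2 fold change of -1.51 (edgeR adjusted p = 2.89e-10) that was -2.21 with the correction.

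The D-type cyclin RNA of these cells was almost entirely CCND3. CCND3 (ENSG00000112576, chr6:41934933-42050357, minus strand) had normalized counts of 923, 880 and 807 in WT and of 1735, 1771 and 1654 in the libraries labelled GFI1-KO. The groups did not overlap, and the mean was 1.98-fold higher, a log2 fold change of 0.98 ± 0.05 (edgeR adjusted p = 2.25e-15). It was 0.53 with the correction (adjusted p = 1.24e-09), with transcripts of 59.3% GC.

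CCND1 and CCND2, for cyclins D1 and D2, were close to the limit of these libraries. CCND1 (ENSG00000110092, chr11:69641087-69654474, plus strand) had 26, 19 and 22 counts in WT and 44, 21 and 37 in the libraries labelled GFI1-KO. Normalized for depth, these were 26.6, 21 and 23.1 in WT and 41.9, 19.9 and 34.8 in the other group, so GFI1-KO library 2 lay below all WT libraries and the other two above them. Its count of 21 has a 95% Poisson interval of 13 to 32.1 that covers counting error only. The log2 fold change of 0.44 ± 0.29 did not pass (edgeR adjusted p = 0.179), but was 0.70 without GFI1-KO library 2 (adjusted p = 0.0389), and 0.13 with the correction (adjusted p = 0.72). LTO1, which overlaps CCND1 on the opposite strand and shares 8.46% of its 50-base words, did not pass (0.08, edgeR adjusted p = 0.433, corrected -0.03). CCND2 (ENSG00000118971, chr12:4273772-4305350, plus strand) had 4, 8 and 9 counts in WT and 1, 1 and 5 in the other group. It did not pass the filter on low counts, and its normalized counts overlapped between the groups, so no difference in level was detectable at this depth. With no filter its log2 fold change was -1.68 (edgeR adjusted p = 0.0605). Of the 50-base words of CCND2 transcripts, 12.6% also occur in other genes, so its count is uncertain.

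The kinase genes went opposite ways. CDK4 (ENSG00000135446, chr12:57747727-57756013, minus strand) had normalized counts of 1714, 1660 and 1781 in WT and of 2563, 2645 and 2546 in the libraries labelled GFI1-KO. Its groups were apart by 1.5-fold in the means, with a log2 fold change of 0.59 ± 0.04 (edgeR adjusted p = 3.83e-13) and 0.21 after the correction (adjusted p = 3.62e-05). TSPAN31 and MARCHF9 overlap CDK4 on the opposite strand, and 35.7% of the 50-base words of CDK4 transcripts also occur in TSPAN31, so its count is uncertain. TSPAN31 did not pass (-0.01, edgeR adjusted p = 0.883, corrected 0.07), and the MARCHF9 row, whose symbol the table holds as a date, was lower (-0.20, adjusted p = 0.00496, corrected -0.62). CDK6 (ENSG00000105810, chr7:92604921-92836594, minus strand), the other partner of the D-type cyclins, had normalized counts of 171, 211 and 204 in WT and of 117, 92.9 and 109 in the other group. Here every library labelled GFI1-KO lay below every WT library, and the WT mean was 1.84-fold higher. Its log2 fold change was -0.87 ± 0.13 (edgeR adjusted p = 9.21e-07), and -0.33 with the correction (adjusted p = 0.0278). Of 47 tested genes within 5 megabases of CDK6, 33 were lower and 7 higher, with a median of -0.46 (corrected, 0.02). Over all tested genes 35.9% were lower and 36.5% higher. Windows of other members leaned to one side too. Around CDK4, 83 of 158 were higher and 27 lower (median 0.31, corrected 0.16). Around CCND1, 114 of 182 were higher and 27 lower (0.41, corrected -0.02).

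RB1 (ENSG00000139687, chr13:48303726-48599436, plus strand), whose product the D-type cyclin kinases phosphorylate, had normalized counts of 328, 360 and 346 in WT and of 256, 249 and 266 in the libraries labelled GFI1-KO. All 3 libraries of the second group were below WT, which was 1.34-fold higher by the means, and the log2 fold change was -0.42 ± 0.08 (edgeR adjusted p = 6.31e-05). With the correction for GC and length the sign turned, to 0.17 (adjusted p = 0.0712). RB1 transcripts hold 39.2% GC, the least of the 10 genes. Its relatives RBL1 and RBL2, which encode p107 and p130, were likewise lower, at -0.50 (edgeR adjusted p = 3.37e-07) and -0.36 (adjusted p = 4.78e-07), and did not pass after the correction, at -0.02 and 0.10. RCBTB2, which lies over RB1 on the opposite strand, did not pass (-0.15, edgeR adjusted p = 0.0819, corrected 0.04).

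Because a share within a library does not depend on how libraries are scaled to each other, the make-up of each family was also computed from FPKM. Such shares, and the summed levels beside them, still carry the GC content of the genes compared and were not corrected for it. The summed level of the D-type cyclins was 9.46 ± 0.603 FPKM in WT and 18.2 ± 0.539 in the libraries labelled GFI1-KO, 1.93-fold higher (SD, n = 3, exact two-sided permutation p = 0.1, the smallest that 3 against 3 libraries allow). CCND3 held 96.3%, 96.4% and 95.8% of it in WT and 97.1%, 98.6% and 97.3% in the other group, where each share was higher than any WT share (exact permutation p = 0.1). CCND1 held 3.13% ± 0.316 and 2.2% ± 0.777, and these groups overlapped. CCND2, with at most 9 counts in a library, held 0.681% ± 0.296 and 0.104% ± 0.105. Its shares did not overlap (exact permutation p = 0.1). Of the summed kinases, 33.9 ± 1.16 and 49.5 ± 0.946 FPKM, CDK6 held 2.51%, 3.19% and 2.87% in WT and 1.17%, 0.899% and 1.1% in the libraries labelled GFI1-KO. The groups were apart, by -1.8 percentage points (exact permutation p = 0.1), and by -6.25 points, from 10.2% to 3.96%, when shares were taken from counts without division by gene length.

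The CIP/KIP family changed most in make-up. CDKN1B led in WT, with 50.2% ± 3.27 of the summed FPKM, and CDKN1A led in the libraries labelled GFI1-KO, with 61.2% ± 2.23 after 24.2% ± 2.89 in WT (SD, n = 3). CDKN1A was at 22.4%, 27.5% and 22.6% in the WT libraries and at 62.3%, 62.7% and 58.6% in the others, which were far apart (exact permutation p = 0.1). CDKN1C went from 25.6% ± 0.531 to 5.36% ± 0.637. The summed level of this family was 17.2 ± 0.209 and 28.5 ± 1.27 FPKM, 1.66-fold higher. The INK4 family kept a more even make-up. Its sum, also not corrected for GC content, went from 107 ± 5.15 to 187 ± 1.99 FPKM, 1.75-fold. CDKN2A was at 37.9% and 34%, CDKN2B at 4.01% and 5.78%, CDKN2C at 40.9% and 41.7%, and CDKN2D at 17.2% and 18.4%, and the groups overlapped for CDKN2C and CDKN2D.

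**Figure D4:**
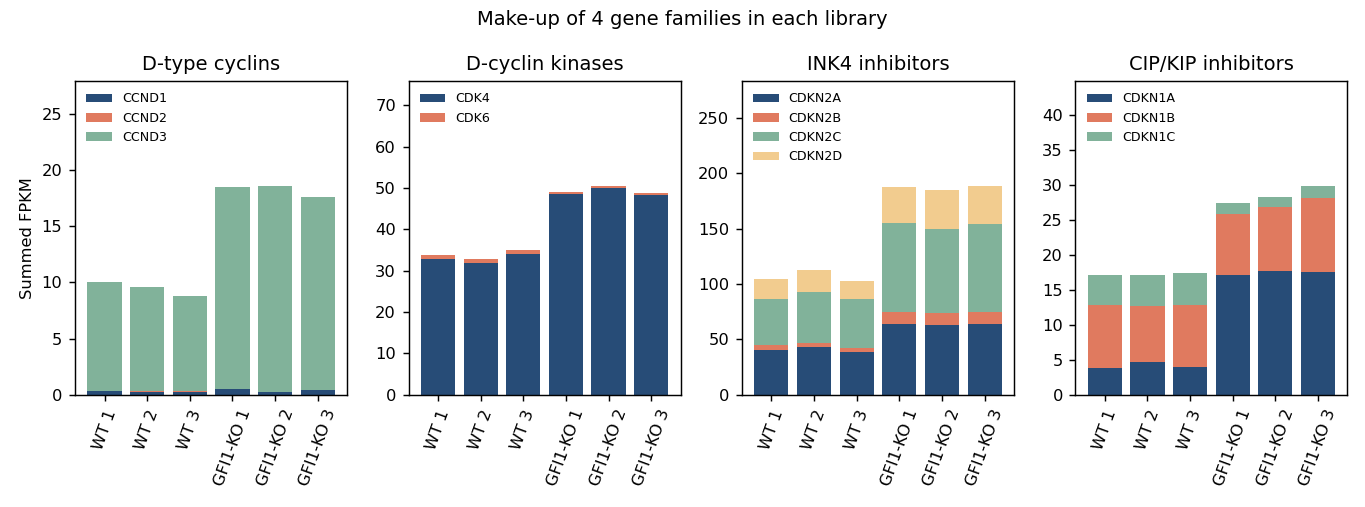
Summed FPKM of the D-type cyclins, their kinases, the INK4 inhibitors and the CIP/KIP inhibitors in each of the 6 libraries, with the bars divided by gene. The sums, not corrected for GC content, are higher in all 3 libraries labelled GFI1-KO in each family. CDKN1A takes 61.2% of the CIP/KIP bar there against 24.2% in WT.

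The other genes of the pathway were described by role, with 88 genes that are not members, of which 87 were tested. Of these, 48 were lower, 30 higher and 9 did not pass, and their median was -0.19. After the correction 30 were higher and as many lower, and the median was -0.03. The shares over all tested genes were 36.5% higher and 35.9% lower, and 33.2% and 27.2% after the correction. The counts of the lists below stand against the same shares. At the next step of the pathway, the cyclin E and A genes and CDK2, the kinase gene CDK2 was higher (0.44, edgeR adjusted p = 1.31e-09, corrected 0.32) and the cyclin A genes CCNA1 (-0.78, adjusted p = 1.14e-08, corrected -0.85) and CCNA2 (-0.54, adjusted p = 7.56e-13, corrected -0.22) were lower. The cyclin E genes CCNE1 (0.05) and CCNE2 (-0.06) did not pass, though CCNE2 was higher after the correction (0.52). Of 6 genes for the CDK-activating kinase and CDC25 phosphatases, 1 was higher, CDC25B (0.38), and 4 were lower, led by MNAT1 (-0.42), CCNH (-0.27) and CDK7 (-0.22). After the correction CDC25B, MNAT1 and CDK7 did not pass and CCNH was higher (0.30).

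Of 10 E2F and DP genes, 1 was higher, 6 were lower and 3 did not pass, with a median of -0.16. Among all tested genes 36.5% were higher and 35.9% lower. After the correction the counts were the same, though for other genes, and the median was -0.14. The activator E2F3 was lower (-0.35, edgeR adjusted p = 2.8e-08, corrected -0.11), as was E2F1 (-0.12, adjusted p = 0.00357), whose corrected change was -0.80 (adjusted p = 5.54e-16), and E2F2 did not pass (0.04) but was lower after the correction (-0.29). Of the E2Fs best known as repressors, E2F4 was higher (0.34) but lower after the correction (-0.21, edgeR adjusted p = 8.52e-05). E2F5 (-0.53), E2F6 (-0.20) and E2F7 (-0.34) were lower and lost their calls after the correction. E2F8 did not pass (0.10) but was higher after it (0.26). TFDP2, whose product pairs with E2F proteins, was lower (-0.42, corrected -0.18). The E2F target genes were split, with 9 higher, 10 lower and 1 that did not pass of 20, and a median of -0.05 (corrected, 7 higher, 11 lower and -0.14). The replication licensing genes MCM5 (0.92, corrected 0.57) and CDT1 (0.52, corrected -0.24) and TYMS (0.50, corrected 0.37), which encodes thymidylate synthase, were the highest. RRM2 (-0.78, corrected -0.60), a subunit of ribonucleotide reductase, the mitotic cyclin gene CCNB1 (-0.59, corrected -0.42) and POLA1 (-0.49), the catalytic subunit of DNA polymerase alpha, were the lowest, and POLA1 did not pass after the correction (-0.03, adjusted p = 0.499).

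Genes for the turnover of cyclin D and p27 were lower in 7 of 9 cases tested and higher in 2, with a median of -0.45. Among all tested genes 35.9% were lower and 36.5% higher. After the correction 3 were lower, 2 higher and 4 did not pass, with a median of -0.07. FBXW7 (-0.92, corrected -0.49), which marks cyclin E for degradation, SKP1 (-0.60, corrected -0.07, not passed) and SKP2 (-0.54, corrected -0.18), the F-box protein for p27, were the lowest. AMBRA1 (0.49, corrected 0.24), which takes D-type cyclins to degradation, and FBXO31 (0.41, corrected -0.01, not passed) were the higher ones.

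Of 9 genes for repressors of the INK4/ARF locus and the demethylase gene that opposes them, 5 were lower and 4 higher, and their median was -0.16 (corrected, 4 higher, 2 lower and 0.01). The demethylase gene was among the 4 higher (0.20) and was lower after the correction (-0.35). The Polycomb genes CBX7 (1.65, corrected 1.18), RING1 (1.06, corrected 0.41) and CBX8 (1.05, corrected 0.53) were the highest. SUZ12 (-0.64), RNF2 (-0.59) and BMI1 (-0.50) were the lowest, and these 3 did not pass after the correction (0.01, -0.07 and -0.03). Over 10% of the 50-base words of CCNE2, CCNH, CDK2, CDKN2C, E2F5, E2F6, TYMS, RBL2, MDM2, SKP1, FBXO31, BMI1 and CBX7 occur in other genes too, so these counts are uncertain.

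**Figure D5:**
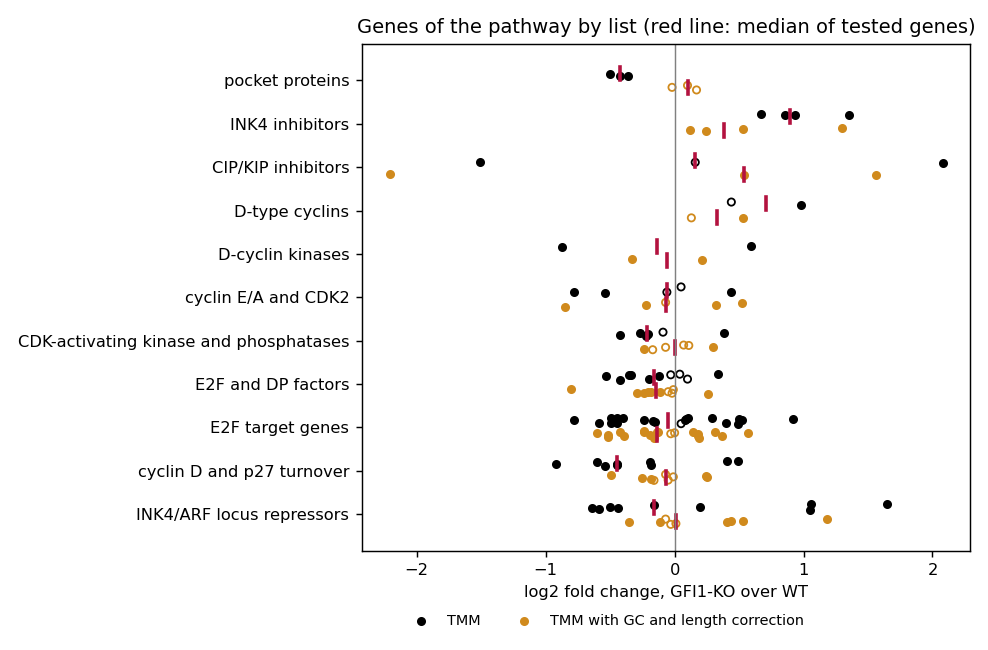
Log2 fold change, labelled GFI1-KO over WT, of the tested genes of the pathway lists by role, by edgeR with TMM factors (black) and with the GC and length correction (orange). Filled points passed an adjusted p of 0.05 and red lines mark each list's median, which for the pocket proteins moves from -0.42 to 0.10 and for the INK4 inhibitors from 0.89 to 0.38.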

How the data were processed

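Poly-A RNA from 3 WT and 3 GFI1-KO libraries of H1155 cells was sequenced on a NovaSeq system. The authors deposited raw counts per gene, with the length and position of each gene from their annotation. The submitters' processing notes name Bowtie2, HTSeq and hg38, whereas the study's methods name Hisat2 and featureCounts, and the annotation and strand setting are not given in the sources used here. Groups came from the labels. The members and lists were chosen with earlier results of these data known. From the counts, edgeR 4.0.16 (R 4.3.3) with TMM factors, filterByExpr, the quasi-likelihood test and Benjamini-Hochberg adjustment over all genes was run, with a threshold of 0.05. Standard errors are the log2 fold change over the square root of F. Normalized counts are counts over TMM effective library size, scaled to its mean. FPKM used deposited lengths and library totals. The GC correction used offsets from natural splines (5 degrees of freedom) of GC content, from GENCODE release 44 transcripts, and log gene length. Floors and intervals cover counting error only. Replicates of a group differed by more than sampling noise, with a chi-square per degree of freedom of 1.82 to 4.14.

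Named, called or not, were the members, GFI1, the relatives (RBL1, RBL2, the other INK4 and CIP/KIP genes, the cyclin E genes, CCNA2, CDK2, E2F1 to E2F8 and MDM2), genes overlapping members that passed the filter, and every gene of a list with 5 or fewer tested. From each other list, up to 3 called genes per direction with a mean normalized count of at least 50 were added. Single marker genes were named after their values were seen. Alternatives were DESeq2 1.42.0, median-of-ratios factors, library size alone, no filter, 10 counts in every sample, the replicate block, the GC correction with and without the block, each library left out, shares from counts and TMM-scaled FPKM. The tests were tested on simulated data. Python 3.11.15 was used for tables and figures. A marker gene and some of the pathway genes are not reported here.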

Additional observations from a re-analysis of the deposited data

How the results depend on the processing

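The calls of CDKN1A, CDKN2A, CDKN2B, CCND3, CDK4 and CDK6 kept their direction and their side of the threshold under all 14 alternatives, with a log2 fold change of 1.56 to 2.17, 0.12 to 0.71, 1.30 to 1.43, 0.53 to 1.02, 0.21 to 0.61 and -0.97 to -0.33. The correction for GC content and gene length turned the sign of RB1, to 0.17, and of GFI1, to -0.01. Neither passed with it (edgeR adjusted p = 0.0712 and 0.966). Together with the replicate block, the correction gave 0.17 and -0.00. With and without the block it left 1 member lower in place of 2, and 30 other pathway genes lower in place of 48. The cause was not tested. GFI1 was at 0.31 by DESeq2 (adjusted p = 0.127), and between 0.21 and 0.43 when each library was left out. The share of CDK6 differed by -6.25 points from counts. The replicate numbers do not pair the libraries: deviations of same-numbered libraries correlated at -0.00617, 0.0134 and 0.0213, and others at -0.0502 to 0.0439. The replicate block called 12573 genes in place of 12680, with 5 members higher and 2 lower, and GFI1 at 0.32. Depth limits CCND1 and CCND2, and words shared with other genes also leave the count of CCND2 uncertain.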
